A study of Mus musculus with 18 samples.

Results

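Cultured mouse CD8+ T cells infected with a retrovirus that raises Nr4a1 (Nr4a1-OV, 2 libraries) were compared with cells infected with the control virus RV-GFP (2 libraries). The 4 libraries were taken by their labels out of 18 libraries of CD8+ T cells, and the choice of libraries used no threshold on a measured value. Earlier results of these data were known when the comparison was chosen. The labels describe the first group as having enhanced Nr4a1 expression and the second as infected with RV-GFP. Before RNA was taken, all 4 cultures had 2 h of PMA and ionomycin, which activate protein kinase C and calcium signalling below the T cell receptor. The comparison therefore concerns restimulated cells on both sides. Mouse strain, age, the time from infection to harvest and the sorting of infected cells are not given in the labels, and neither is the promoter that drives Nr4a1 in the virus. Both groups retain their own Nr4a1 gene as far as the labels say, and read counts do not separate its transcripts from those of the virus. Of 17738 genes in the table, 14120 had at least 10 counts in 2 or more of the 4 libraries and were tested. A further 4 cultured libraries, Nr4a1 WT (2) and Nr4a1 KO (2) cells first activated through CD3 and CD28 and then restimulated in the same way, shared the estimate of the spread and are used beside a few results.

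NR4A1 (Nur77) is an orphan nuclear receptor encoded by an immediate early gene of T cell receptor signalling, as are its relatives NR4A2 and NR4A3. As a monomer it binds the letters AAAGGTCA, an extended half-site for nuclear receptors, and it can activate or repress genes near its sites. In T cells the family is known for induction of Foxp3, the lineage factor of regulatory T cells, and for restraint of effector function in tolerant and exhausted cells.

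Each library held 16.8 to 16.9 M counts. TMM scaling factors were 1.03 for both Nr4a1-OV libraries and 0.897 and 0.889 for RV-GFP, in which the 10 most abundant genes took 5.98% and 6.18% of the counts against 4.57% and 4.66% in Nr4a1-OV. Levels are given below as CPM, read counts per 1 M reads after that scaling. From Cd3e onwards, the pair of values before the word against is that of the Nr4a1-OV libraries and the pair after it that of the RV-GFP libraries. The cells carried the markers of CD8+ T cells in both groups. Cd8a, the alpha chain of the coreceptor, stood at 728 and 739 CPM in Nr4a1-OV against 1374 and 1393 in RV-GFP, and Cd3e, of the receptor complex, at 235 and 247 CPM against 191 and 206. Cd4 stood at 0.581 and 0.406 CPM against 0.662 and 0.465. Replicates were not identical: counts of the 2 libraries of a group gave a chi-square of 2.98 (Nr4a1-OV) and 2.76 (RV-GFP) for each degree of freedom, above the 1 that counting error alone gives. Separate cultures or animals are not stated in the labels for the replicates, so the p-values measure only the spread between these libraries. In bulk RNA, fewer cells of a type and less RNA per cell cannot be told apart.

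Nr4a1 stood at 5263 and 5052 CPM in Nr4a1-OV against 2014 and 2221 in RV-GFP, so both Nr4a1-OV libraries lay above both controls, at a log2 fold change of 1.28 with SE 0.06 (adjusted p = 7.21e-13, edgeR's quasi-likelihood test). Per length, it ranked 17 of 17738 genes in Nr4a1-OV and 47 in RV-GFP, at 1513 and 1447 RPKM against 565 and 624. The control cells thus already held a high level of this gene after restimulation. Its relatives moved the other way. Nr4a2 stood at 775 and 716 CPM against 1135 and 1142 (log2 fold change -0.61). Nr4a3 was at 1818 and 1707 CPM against 2018 and 2063 (log2 fold change -0.21). The EGR factors, which T cell receptor signals induce alongside NR4A1, fell as well. Egr1 stood at 471 and 451 CPM against 879.7 and 945 (log2 fold change -0.98). Egr2 stood at 269.7 and 257 CPM against 495 and 542 (-0.98). Nab2, their corepressor, stood at 143 and 144 CPM against 209 and 236 (-0.64). Of the 9 NR4A and EGR family genes tested, Nr4a1 alone rose and the other 8 fell, beside 33.8% of all genes tested. Nr4a1 is the gene raised by the virus, so its rise is no separate result.

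The response was broad. At an adjusted p under 0.05, 4390 genes were higher in Nr4a1-OV (31.1% of those tested) and 4771 lower (33.8%), which together make 64.9%, so a call by itself says little about a gene here, and a list with members called at about these shares in each direction is no result about that list. The sizes were unequal: 1721 genes rose at least 2-fold (12.2%) and 545 fell as far (3.86%). At a log2 change of 3 or more, 212 genes rose and 11 fell, and at 5 or more 81 rose and 1 fell. Over all genes tested, the median change was -0.02 on the log2 scale. Counts and medians of the lists below are to be read beside the shares of 31.1% and 33.8% and this median. No count at all was found in either control library for 32 of the genes tested, and in either Nr4a1-OV library for 1, S100a5.

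**Figure D1:**
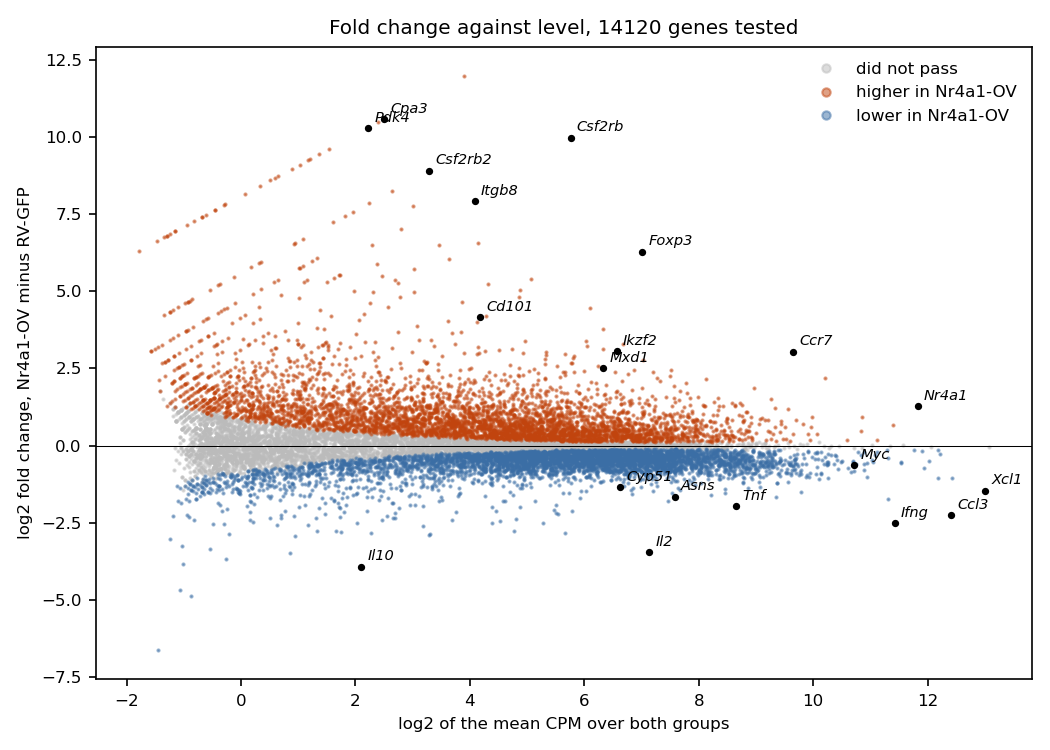
Log2 fold change (Nr4a1-OV minus RV-GFP, vertical axis) against log2 of the mean CPM over both groups (horizontal axis) for the 14120 genes tested; orange points were higher, blue points lower and grey points did not pass an adjusted p of 0.05. Large rises reach from rare genes such as Cpa3 to Foxp3 and Ccr7, and Il2, Ifng, Ccl3 and Xcl1 lie among the genes that fell; the straight streaks at left are genes with 0 to a few control counts, whose fitted values depend on the prior count.

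Under a minimum of 10 CPM in the higher group, the genes with the highest fold changes were nearly silent in the controls and spanned membrane receptors, adhesion proteins and enzymes. Csf2rb, the common beta chain of the receptors for IL-3, IL-5 and GM-CSF, stood at 108 and 109 CPM against 0.132 and 0.0664, a ratio of 1089-fold (95% interval 372 to 5283, 3731 counts against 3). Its mouse-specific copy Csf2rb2, which serves the IL-3 receptor, gave a ratio of 588-fold (95% interval 105 to 23240, 671 counts against 1). Csf2rb and Csf2rb2 are near-identical neighbours, so the split of reads between them is uncertain. Itgb8, which encodes the integrin beta chain that activates latent TGF-beta, stood at 34.5 and 33.2 CPM against 0.132 and 0.133 (log2 fold change 7.92). Lima1, an actin-binding protein, stood at 35.9 and 31.7 CPM against 0.199 and 0.0664. Trpm1, a cation channel, was at 33.7 and 36.1 CPM against 0.331 and 0.399. Each control library held 1 to 6 counts of these 3 genes. Nrp2, a semaphorin and VEGF receptor, gave a ratio of 139-fold (95% interval 47.4 to 678, 477 counts against 3). Cpa3, a carboxypeptidase of mast cell granules, was at least 56.9-fold higher against a floor of 3 counts in each control library. Cpa3 had no count in either control. The same held for Nrcam, a cell adhesion gene, which was at least 53.1-fold higher. Further genes without a control count included some below that minimum. Pdk4, the kinase that inhibits pyruvate dehydrogenase, was at least 46.9-fold higher. The receptor phosphatase Ptprm was at least 29.2-fold higher, and Gm7694 at least 151-fold. Jag1, a Notch ligand, gave a ratio of 284-fold (95% interval 50.6 to 11240, 324 counts against 1). Foxc1, a forkhead factor, gave one of 126-fold (95% interval 22.3 to 5014, 144 counts against 1). Jag1 and Foxc1 were chosen after their values were seen.

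Among genes with at least 10 CPM in the higher group, the 15 lowest fold changes included those of secreted proteins, their receptors and amino acid stress genes. Il2 had the lowest of these, at 24.4 and 22.4 CPM against 252 and 264, a log2 fold change of -3.46 (SE 0.07). Siglecf, an inhibitory sialic acid receptor, stood at 2.33 and 2.21 CPM against 17.3 and 17.01. Il1r2, the decoy receptor for IL-1, stood at 2.79 and 1.97 CPM against 16.9 and 17.8. P2ry14, a receptor for UDP-sugars, was at 4.07 and 4.003 CPM against 20.6 and 22.7. Only genes whose libraries did not overlap between the groups could enter these 15, so their separation follows from the choice. Slc7a3, a transporter of cationic amino acids, stood at 2.67 and 2.38 CPM against 16.1 and 15.01. Chac1, a glutathione-degrading enzyme of the amino acid stress response, was at 6.22 and 6.27 CPM against 34.5 and 36.9. Amino acid genes are taken up again below. Esm1, a secreted proteoglycan, stood at 2.21 and 2.03 CPM against 9.66 and 11.8. Lipg, a lipase, stood at 1.80 and 2.32 CPM against 9.99 and 11.2. For each of these 4 genes, both Nr4a1-OV libraries lay below both controls, as the choice required.

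**Figure D2:**
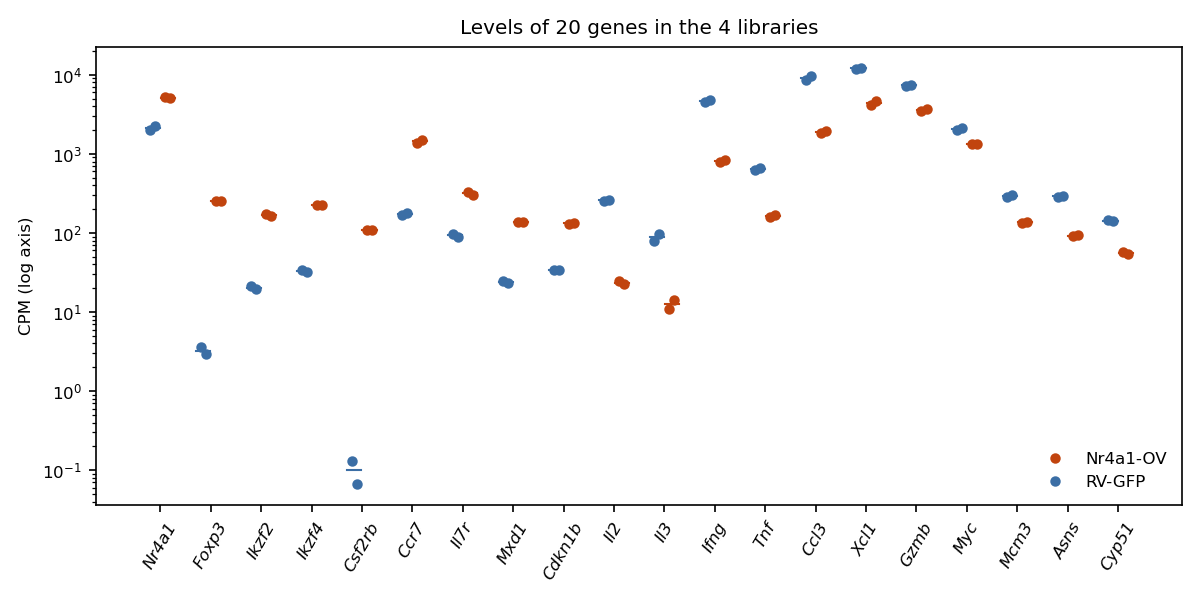
CPM (log axis) of 20 genes in each of the 4 libraries; orange points are Nr4a1-OV, blue points RV-GFP, and short lines the group means. Replicates lie close together beside the distance between groups for every gene drawn, from Csf2rb at 0.132 and 0.0664 CPM in RV-GFP to Xcl1 at 11940 and 12250 CPM. The genes drawn were chosen with their changes known, so this gap follows from the choice.

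Promoter windows from RefSeq (GRCm38.p6, 250 bases before to 50 after the gene start) were searched on both strands for AAAGGTCA and for its last 6 letters, AGGTCA, which every copy of the longer motif contains. Of the genes tested, 9511 had a window. AAAGGTCA was in a window of 1.25% of them, of 1.46% of genes that rose at least 2-fold (18 of 1232) and of 1.87% of genes that fell as far (6 of 321), against 1.70% of all 27025 genes in the promoter table. AGGTCA was in 14.7% of genes tested, 16.6% of those that rose and 18.1% of those that fell, against 18.1% of the whole table. Among the 15 highest fold changes, 0 of the 14 genes with a window held AAAGGTCA and 4 held AGGTCA. Among the 15 lowest, 1 of 11 (P2ry14) held the longer motif and 5 the shorter. A gene was counted if any of its windows held the motif, so genes with several windows had more chances. The windows below are those of Foxp3, which rose, and of P2ry14, Il2, Ifng and Ccl3, which fell; they show where these letters lie. They run 5′ to 3′ on the gene's strand, and capitals mark AGGTCA or its reverse complement TGACCT, and in P2ry14 the whole of AAAGGTCA. A match is a description of letters and not a bound site.
Foxp3, chrX:7580233-7580532, plus strand: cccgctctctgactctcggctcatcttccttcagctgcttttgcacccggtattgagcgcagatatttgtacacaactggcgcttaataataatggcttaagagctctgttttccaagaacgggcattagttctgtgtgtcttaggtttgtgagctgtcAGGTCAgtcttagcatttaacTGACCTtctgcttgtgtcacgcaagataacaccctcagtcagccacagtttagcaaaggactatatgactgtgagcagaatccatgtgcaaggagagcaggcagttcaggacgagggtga
P2ry14, chr3:59131279-59131578, minus strand: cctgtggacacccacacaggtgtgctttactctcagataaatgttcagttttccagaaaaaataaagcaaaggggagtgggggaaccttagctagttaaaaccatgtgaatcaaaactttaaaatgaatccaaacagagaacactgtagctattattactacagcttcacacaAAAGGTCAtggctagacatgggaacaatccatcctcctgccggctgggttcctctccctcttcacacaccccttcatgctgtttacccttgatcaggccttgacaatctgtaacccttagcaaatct
Il2, chr3:37125905-37126204, minus strand: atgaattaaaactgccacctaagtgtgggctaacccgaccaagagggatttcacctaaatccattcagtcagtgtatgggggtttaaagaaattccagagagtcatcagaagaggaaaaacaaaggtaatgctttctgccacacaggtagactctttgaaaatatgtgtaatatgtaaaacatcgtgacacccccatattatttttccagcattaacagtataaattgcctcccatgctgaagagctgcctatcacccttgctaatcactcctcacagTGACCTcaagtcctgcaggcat
Ifng, chr10:118440796-118441095, plus strand: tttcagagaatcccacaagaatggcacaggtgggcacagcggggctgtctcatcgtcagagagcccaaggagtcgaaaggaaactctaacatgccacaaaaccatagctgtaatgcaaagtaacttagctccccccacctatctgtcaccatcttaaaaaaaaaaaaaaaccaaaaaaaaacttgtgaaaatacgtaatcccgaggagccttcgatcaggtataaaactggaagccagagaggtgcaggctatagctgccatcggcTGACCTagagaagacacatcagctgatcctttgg
Ccl3, chr11:83649329-83649628, minus strand: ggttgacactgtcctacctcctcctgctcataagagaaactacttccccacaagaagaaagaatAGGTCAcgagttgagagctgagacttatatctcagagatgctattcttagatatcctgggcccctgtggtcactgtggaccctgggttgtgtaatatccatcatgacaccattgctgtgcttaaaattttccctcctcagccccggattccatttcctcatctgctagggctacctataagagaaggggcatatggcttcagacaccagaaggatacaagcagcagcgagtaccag

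Counting from the gene start, the AGGTCA of Foxp3 begins at -91 on the gene's strand, and a second, on the opposite strand, at -70. In P2ry14 it begins at -75, in Ccl3 at -186, and in Il2 and Ifng it lies on the opposite strand after the start, at 29 and 17. The other window of Foxp3 in the table and the other windows of P2ry14 held neither motif. Those of Csf2rb2, Itgb8, Cpa3, Nrcam and Il3 held neither.

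Of 21 genes of regulatory T cells tested, 10 rose and 7 fell, beside 31.1% and 33.8% of all genes tested. Their median log2 fold change was 0.12. Foxp3 stood at 253 and 255 CPM against 3.57 and 2.92 (log2 fold change 6.29, SE 0.11; adjusted p = 1.41e-19, edgeR's quasi-likelihood test). The Ikaros family factors that act with FOXP3 rose too. Ikzf2 (Helios) stood at 174 and 165 CPM against 21.2 and 19.3. Ikzf4 (Eos) was at 228 and 229 CPM against 34.4 and 31.9. Ctla4, an inhibitory receptor for B7 ligands, stood at 572 and 568 CPM against 235 and 223. Lrig1, a membrane regulator of growth factor receptors, stood at 116 and 119 CPM against 43.95 and 49.2. Icos, a costimulatory receptor, rose by 0.92 on the log2 scale. Other genes of the list went down. Il10, the gene of the inhibitory cytokine IL-10, stood at 0.291 and 0.754 CPM against 8.41 and 7.71 (log2 fold change -3.93). Il1rl1, the receptor for IL-33, was at 11.6 and 11.4 CPM against 66.8 and 65.5. Nrp1, a semaphorin receptor of thymic regulatory T cells, stood at 82.4 and 77.2 CPM against 286 and 264. Cd4 remained under 1 CPM in each library. Entpd1 (CD39) was low in both groups, at 2.27 and 1.33 CPM against 1.99 and 1.53, and did not pass. Tgfb1 (log2 fold change -0.02) did not pass either.

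Secreted signals mostly fell. Of 18 cytokine ligands tested, 12 fell, 10 of them at least 2-fold, and 3 rose, with a median log2 fold change of -1.36 against -0.02 for all genes. Ifng, the main macrophage-activating cytokine of CD8+ T cells, stood at 799.7 and 838 CPM against 4571 and 4789 (log2 fold change -2.51, SE 0.11). Il3 stood at 10.8 and 14.2 CPM against 79.7 and 97.1. Csf2, which encodes GM-CSF, stood at 15.8 and 18.2 CPM against 65.8 and 77.9. Both bind receptors built with the beta chain of Csf2rb. Il23a, a subunit of IL-23, stood at 0.988 and 0.696 CPM against 5.63 and 6.18. Tgfb3, Csf1 and Il16 rose. Tgfb3 gave a ratio of 212-fold (95% interval 37.7 to 8404, 242 counts against 1). Csf1, which encodes M-CSF, stood at 17.03 and 16.2 CPM against 4.96 and 5.38. Il16, a chemoattractant for CD4+ cells, was at 63.02 and 57.8 CPM against 34.9 and 35.3. Ltb, of lymphotoxin, did not pass (log2 fold change -0.08).

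Of 9 chemokine ligands, 7 fell and 1 rose, beside 33.8% and 31.1% of all genes tested. The summed level of the chemokine ligand list was 7627 and 8268 CPM in Nr4a1-OV against 24650 and 26350 in RV-GFP. Ccl3 stood at 1816 and 1951 CPM against 8512 and 9527. Ccl4 was at 1159 and 1197 CPM against 3719 and 4046. Xcl1, which attracts cross-presenting dendritic cells, was at 4164 and 4608 CPM against 11940 and 12250. They were named because they passed the threshold, so the lack of overlap between the groups is no separate result. Ccl3, Xcl1 and Ifng were the genes with the largest falls in CPM of all genes tested. Ccl5 moved the other way, at 323 and 331 CPM against 129.6 and 135 (log2 fold change 1.30). Of 10 TNF superfamily ligands, 6 fell and 2 rose, beside the same shares of all genes. Cd40lg, which activates antigen-presenting cells, stood at 6.80 and 6.96 CPM against 47.5 and 47.4. Tnfsf14 (LIGHT) stood at 182 and 178 CPM against 524 and 532. Tnfsf10 (TRAIL), a death ligand, stood at 117 and 122 CPM against 13.6 and 11.96. Tnfsf4 (OX40 ligand) was at 93.1 and 96.2 CPM against 17.7 and 18.2. Tnfsf10 and Tnfsf4 were each low in the controls. Fasl, another death ligand, did not pass, at 88.8 and 88.2 CPM against 85.05 and 88.4.

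**Figure D3:**
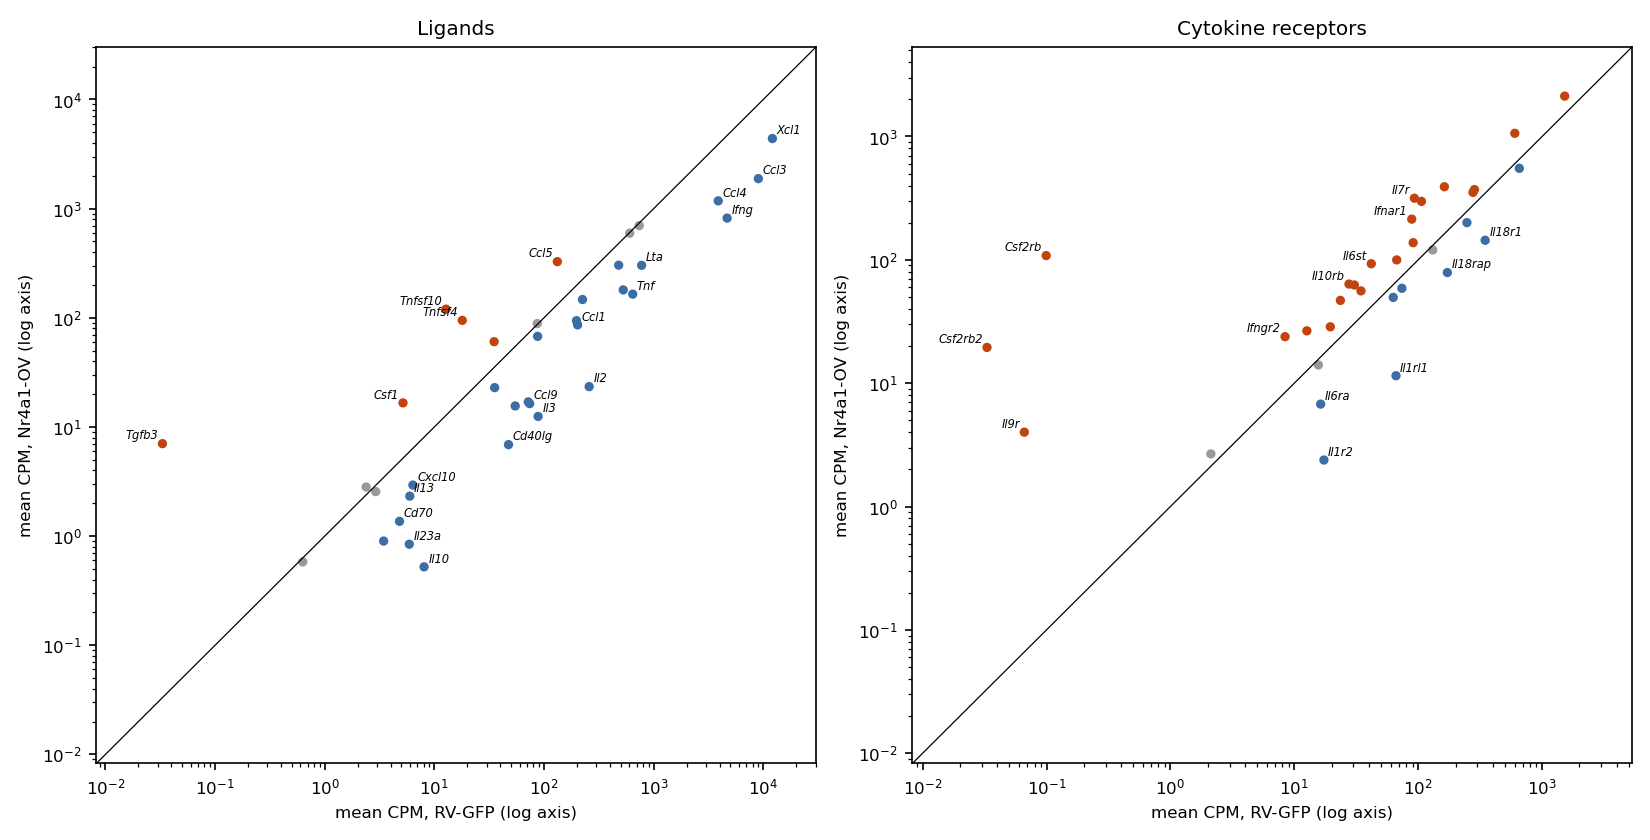
Mean CPM in Nr4a1-OV against mean CPM in RV-GFP (both log axes, n = 2 libraries each) for cytokine, chemokine and TNF superfamily ligands (left) and cytokine receptors (right), with the line of equality; orange genes were higher, blue lower and grey did not pass, and some genes that moved at least 2-fold are named. Most ligands lie below the line and most receptors above it, with Csf2rb, Csf2rb2, Il9r and Tgfb3 near 0 CPM in RV-GFP.

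The receptors for cytokines mostly rose. Of 33 tested, 21 were higher, 12 at least 2-fold, and 9 lower, with a median log2 fold change of 0.57. Besides the beta chains above, Il7r, of the survival cytokine IL-7, stood at 326 and 306 CPM against 96.97 and 89.3 (log2 fold change 1.76). Il12rb2, the signalling chain of the IL-12 receptor, stood at 308 and 288 CPM against 108 and 104. Ifngr2 stood at 24.4 and 23.3 CPM against 7.94 and 8.90. Ifnar1 was at 219 and 209 CPM against 90.7 and 86.6. Both are chains of interferon receptors. Of the alpha chains that pair with Csf2rb, Il3ra stood at 26.6 and 30.7 CPM against 17.4 and 21.7 (log2 fold change 0.55). Csf2ra did not pass, at 14.2 and 13.9 CPM against 15.8 and 15.6. The 4 receptors of the IL-1 family that were tested in the list fell. Il18r1 stood at 147 and 141 CPM against 356 and 338. Il18rap, its partner, stood at 82.2 and 75.6 CPM against 177 and 167. Il1rl1 and Il1r2 are given above. Of 14 TNF superfamily receptors, 7 rose and 5 fell, beside 31.1% and 33.8% of all genes tested. Among them were the death receptor Fas (log2 fold change 1.09) and Tnfrsf8, which encodes CD30 (-1.93).

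In the TGF-beta pathway, 15 of 22 genes rose and 3 fell, beside 31.1% and 33.8% of all genes tested. The median log2 fold change of the list was 0.38. With Itgb8 and the ligand Tgfb3, the receptor genes Tgfbr1, Tgfbr2 and Tgfbr3 rose, by 0.99, 0.57 and 1.07 on the log2 scale, and so did the activin receptor Acvr2a (1.18). Itgav, the alpha chain that pairs with Itgb8, did not pass, at 475 and 475 CPM against 489 and 481. Smad3, a signal transducer of the pathway, stood at 62.3 and 64.9 CPM against 129 and 128 and fell by 1.01 on the log2 scale, and Smad2 fell by 0.39.

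Genes of stem-like and memory T cells rose in the main. Of 18 tested, 14 were higher and 4 lower, with a median log2 fold change of 0.76. Ccr7, the receptor for entry into lymph nodes, stood at 1370 and 1504 CPM against 167 and 181 (log2 fold change 3.05, SE 0.06). Myb, a factor of stem-like CD8+ T cells, stood at 302 and 295 CPM against 60.8 and 64.9. Tcf7, which encodes TCF1, was at 321 and 329 CPM against 148 and 150.4. Klf2, which maintains S1pr1, stood at 68.7 and 81.98 CPM against 24.4 and 32.02. As these genes were named for passing the threshold, the gap between their groups adds no separate result. The 4 genes that fell were Slamf6, Ly6c2, Id3 and Bcl6. Slamf6 (Ly108), another marker of stem-like cells, stood at 96.04 and 93.1 CPM against 276 and 272. Ly6c2, a surface marker of memory cells, stood at 58.1 and 58.02 CPM against 170 and 172. Id3, which restrains E proteins, was at 15.1 and 16.6 CPM against 30.9 and 40.1. Bcl6, a repressor of memory and follicular T cells, was at 20.7 and 20.8 CPM against 32.8 and 38. The list therefore did not move as a unit.

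Of 28 homing genes tested, 14 rose and 9 fell, beside 31.1% and 33.8% of all genes tested. S1pr1, which guides exit from lymphoid tissue, stood at 91.5 and 97.4 CPM against 23.96 and 24.4. Cxcr4, the receptor for CXCL12, was at 18.3 and 19.3 CPM against 6.55 and 5.45. Itga4, an integrin chain, was at 373 and 312 CPM against 126 and 112. Ccr8, a receptor of skin-homing and regulatory T cells, was at 8.84 and 7.95 CPM against 0.662 and 0.199. The receptors for inflammatory chemokines Ccr2 and Cxcr3 went down. Ccr2 stood at 1.16 and 1.22 CPM against 8.41 and 8.64. Cxcr3 stood at 35.5 and 40.03 CPM against 67.05 and 73.6. Itgal, the alpha chain of LFA-1, stood at 586 and 589 CPM against 1104 and 1066. These homing genes were named because they passed the threshold, so the gap between their groups is no separate result. Among 20 factors of effector differentiation, 12 rose and 6 fell, beside the same shares of all genes. Rora, a nuclear receptor of innate and helper lymphocytes, stood at 52.3 and 43.9 CPM against 10.7 and 9.50. Gata3 was at 145 and 149.7 CPM against 41.8 and 44.4. Stat3 was at 895 and 900.5 CPM against 378 and 398. Tbx21, which encodes T-bet, fell by 0.37 on the log2 scale and Zeb2 by 0.59, while Runx3, needed for the CD8 lineage, did not pass (log2 fold change -0.04).

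Cytotoxic genes fell more often than they rose, 10 against 4 of 16 tested, with a median log2 fold change of -0.66. Gzmb, the granule protease, stood at 3454 and 3711 CPM against 7222 and 7520 (log2 fold change -1.04). Nkg7, a granule membrane protein, stood at 444 and 481 CPM against 1271 and 1360. Serpinb9, which inhibits granzyme B within the killer cell, stood at 255 and 261 CPM against 678 and 674. Klrd1 (CD94) rose, at 206 and 198 CPM against 122 and 122. Gzma rose by 0.58 in edgeR's test, but this did not pass with DESeq2 (adjusted p = 0.200). Of 17 genes of T cell identity, 5 rose and 7 fell, beside 31.1% and 33.8% of all genes tested, and none moved by 2-fold. The coreceptor genes Cd8a and Cd8b1 fell by 0.92 and 0.47 on the log2 scale, and Cd2 rose by 0.51.

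Among 29 genes of T cell receptor signalling, 11 rose and 13 fell, beside 31.1% and 33.8% of all genes tested. Their median log2 fold change was -0.07. Plcg1, the phospholipase that generates calcium and diacylglycerol signals, stood at 185 and 175 CPM against 86.1 and 80.1. The calcium sensor Stim1 was at 54.4 and 59.5 CPM against 28.3 and 27.1. The adaptors Lat and Lcp2 fell by 0.54 and 0.63 on the log2 scale, and the kinase Lck did not pass (0.02). Among 36 feedback and anergy genes, 17 rose and 12 fell, beside the same shares of all genes. Dusp10, a phosphatase for stress kinases, stood at 27.7 and 26.2 CPM against 5.56 and 4.05. Dgka, which removes diacylglycerol and is known from anergic T cells, stood at 569 and 555 CPM against 238 and 229. Spry1, an inhibitor of Ras signalling, moved down, at 266 and 257 CPM against 581 and 642. Rgs16, which dampens G protein signals, was also lower, at 782 and 804 CPM against 1639 and 1657. Zfp36l2, which promotes RNA decay, did not pass (0.00).

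Of 27 transcription factors of the AP-1, NFAT and IRF families, 11 rose and 9 fell, near the 31.1% and 33.8% of all genes tested. Jun stood at 249 and 282 CPM against 122 and 135. Fos, its partner, stood at 42.4 and 40.03 CPM against 61.5 and 66.2. Of these AP-1 partners, Jun was higher and Fos lower. Irf1, an interferon-induced factor, stood at 353 and 366 CPM against 179 and 176. Irf5 was at 41.05 and 46.6 CPM against 15.3 and 16.9. Batf3, a partner of JUN, was at 11.1 and 14.5 CPM against 29.9 and 28.6. Irf4, a factor whose induction follows receptor signal strength, did not pass, at 1173 and 1158 CPM against 1145 and 1188. Of 12 NF-kB genes, Nfkbid fell furthest (-1.07), Nfkbie rose (0.75), and Nfkb1 did not pass (-0.01). Inhibitory receptors and exhaustion genes rose in 10 and fell in 7 of 19 cases, beside the same shares of all genes. Cd101, which marks terminally exhausted cells, stood at 34.6 and 34.3 CPM against 1.99 and 1.86. Tox, the factor of the exhausted state, stood at 70.7 and 66.4 CPM against 22.4 and 23.1. Among inhibitory receptors, Ctla4 (above), Tigit and Pdcd1 (PD-1) rose. Tigit stood at 243 and 259 CPM against 139 and 152, and Pdcd1 rose by 0.30 on the log2 scale. Lag3, Btla and Havcr2 fell. Lag3 stood at 185 and 207 CPM against 354 and 401. Btla, the receptor for HVEM, was at 139 and 134 CPM against 228 and 216. Havcr2 (Tim-3) was at 51.6 and 52.3 CPM against 78.1 and 78.8.

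**Figure D4:**
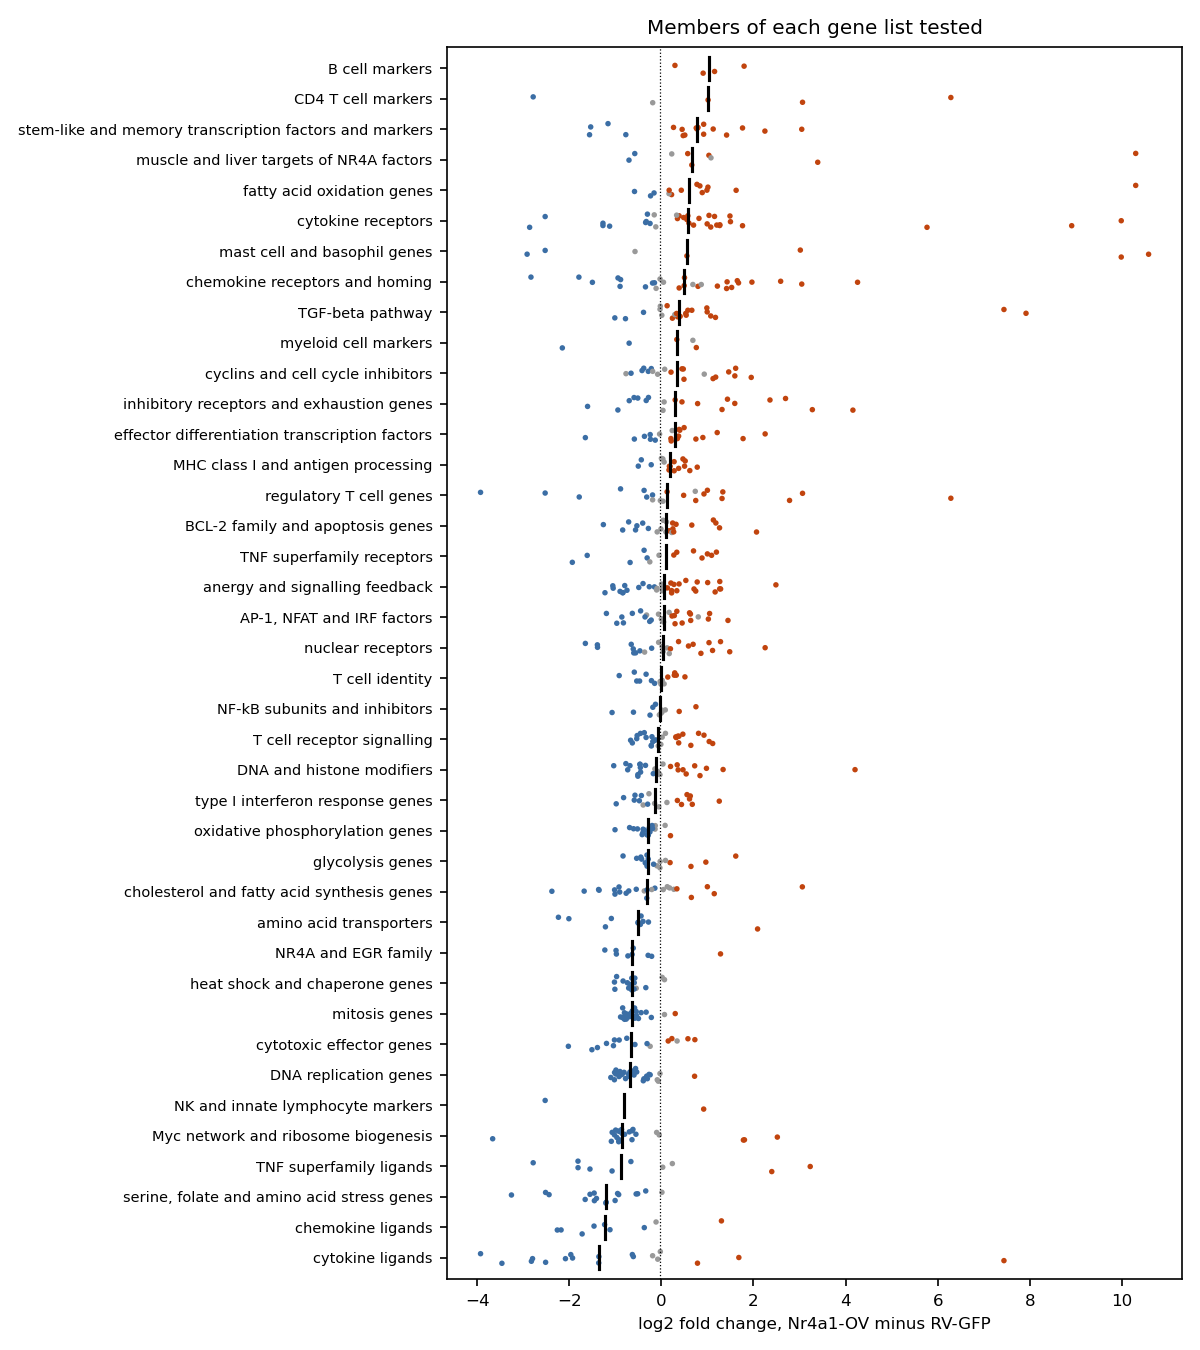
Log2 fold change (Nr4a1-OV minus RV-GFP) of every tested member of each gene list; each point is a gene, orange if higher, blue if lower and grey if it did not pass, black bars are list medians and the dotted line is the median of all 14120 genes (-0.02). The lists of cytokine ligands, chemokine ligands and amino acid stress genes lie lowest by median; the B cell and CD4 T cell marker lists, which lie highest, hold 4 and 5 tested genes.

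Genes of DNA replication and mitosis were mostly lower. Of 30 DNA replication genes, 26 fell and 1, E2f2, rose, with a median log2 fold change of -0.67. Mcm3, of the replicative helicase, stood at 135 and 138 CPM against 286 and 298. Orc6, of the origin complex, stood at 22.3 and 21.8 CPM against 46.3 and 43.05. Of 26 mitosis genes, 24 fell and 1, Cenpa, rose, and none moved 2-fold. Cdk1 stood at 36.1 and 38.9 CPM against 71.2 and 67.5. Plk1 was at 23.02 and 26.9 CPM against 41.2 and 45.7. Of 20 cyclins, cyclin-dependent kinases and cell cycle inhibitors, 10 rose and 5 fell, with a median log2 fold change of 0.33. Several of those that rose inhibit the cycle. Cdkn1b, which encodes p27, stood at 129 and 134 CPM against 34.4 and 33.8 (log2 fold change 1.95). Cdkn2c (p18) stood at 16.1 and 16.2 CPM against 4.70 and 5.98. Rbl2, a retinoblastoma relative of quiescent cells, stood at 50.8 and 45.4 CPM against 18 and 13.4. Cdkn1a (p21) fell by 0.28 on the log2 scale, so the inhibitors did not all rise.

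Growth and biosynthesis genes were lower as well. Of 24 genes of the Myc network and ribosome biogenesis, 19 fell and 3 rose. Those that rose were Mxd1, Mxd4 and Mxi1, which compete with MYC for MAX. Mxd1 stood at 137 and 137 CPM against 24.4 and 23.4 (log2 fold change 2.52). Mxd4 was at 48.95 and 46.01 CPM against 13.4 and 13.8. Mxi1 was at 64.01 and 64.1 CPM against 17.9 and 19.3. Ncl (nucleolin) stood at 3013 and 3021 CPM against 6370 and 6291. Npm1 (nucleophosmin) stood at 1296 and 1309 CPM against 2629 and 2650. Max did not pass (log2 fold change -0.05). None of 16 heat shock and chaperone genes rose and 13 fell, with the mitochondrial chaperonins Hspd1 and Hspe1 at -1.01 and -1.02.

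Genes of amino acid supply were lower. Of 17 serine, folate and amino acid stress genes, 16 fell, 11 at least 2-fold, and none rose, with a median log2 fold change of -1.21. Enzymes of synthesis and of the folate cycle were among them. Asns, which makes asparagine, stood at 91.6 and 93.2 CPM against 288 and 294. Phgdh, which opens serine synthesis, was at 75.1 and 82.5 CPM against 212 and 221. Mthfd2, of the mitochondrial folate cycle, stood at 106 and 111 CPM against 297 and 299. Trib3, a pseudokinase induced by ATF4, stood at 6.74 and 7.60 CPM against 39.4 and 38.5. Of 11 amino acid transporters, 10 fell. Slc7a5, of the leucine transporter, stood at 383 and 417 CPM against 888 and 967. Its partner chain Slc3a2 stood at 303 and 320 CPM against 651 and 672. The exception was Slc43a1, at 44.1 and 43.98 CPM against 9.60 and 11.1.

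Genes of sterol and fatty acid handling fell more often than they rose, while the cholesterol exporters named here rose. Among 25 genes of cholesterol and fatty acid synthesis and transport, 14 fell and 5 rose, beside 33.8% and 31.1% of all genes tested. Cyp51, an enzyme of sterol synthesis, was at 56.8 and 54.4 CPM against 144 and 140.2. Idi1, which acts earlier in that pathway, was at 5.58 and 5.11 CPM against 18.4 and 15.8. Against these, the exporters rose. Abca1 stood at 35.8 and 32.95 CPM against 4.10 and 4.12. Abcg1, which also exports cholesterol, stood at 43.5 and 40.7 CPM against 21.9 and 20.3. Hmgcs1, an early enzyme of the same pathway, did not pass (0.04). Of 14 fatty acid oxidation genes, 10 rose and 3 fell, beside 31.1% and 33.8% of all genes tested. Cpt1a, which admits fatty acids to mitochondria, stood at 35.8 and 35.1 CPM against 18.1 and 17.1. Etfdh, which passes their electrons to the respiratory chain, was at 42.5 and 40.7 CPM against 11.8 and 15.2.

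Of 17 genes known as NR4A targets in muscle and liver, 9 were expressed enough to be tested. Of these 9, 5 rose and 2 fell, beside 31.1% and 33.8% of all genes tested. Besides Pdk4, the muscle enolase Eno3 stood at 117 and 121 CPM against 10.8 and 11.9 (log2 fold change 3.40), while Ucp2, an uncoupling protein, fell by 0.58 on the log2 scale. Glycolysis genes fell in 11 and rose in 4 of 19 cases, beside 33.8% and 31.1% of all genes tested. Hk2 was at -0.83 on the log2 scale and Eno1 did not pass (-0.03). Oxidative phosphorylation genes fell in 15 of 19 cases, beside 33.8% of all genes tested. Among the 15, Atp5g1 alone fell past 2-fold (-1.01).

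Of 23 BCL-2 family and apoptosis genes, 10 rose and 7 fell, beside 31.1% and 33.8% of all genes tested. Bmf, a death-promoting BH3 gene, stood at 6.63 and 5.92 CPM against 1.39 and 1.59. Pmaip1, another, stood at 54.1 and 53.8 CPM against 22.8 and 22.2. The survival gene Bcl2 rose by 0.32 on the log2 scale, and the pore-forming gene Bax did not pass (-0.09). Of 17 genes of MHC class I presentation, 11 rose, none by 2-fold, and 3 fell, beside the same shares of all genes. The rises were led by the peptide transporter Tap1 (0.78) and the class I activator Nlrc5 (0.62). Of 19 type I interferon response genes, 7 rose and 7 fell, near the 31.1% and 33.8% of all genes tested. Among 26 DNA and histone modifiers, 10 rose and 12 fell, beside the same shares of all genes. Class II deacetylases and a DNA methyltransferase were among them. Hdac9 stood at 6.28 and 4.99 CPM against 0.265 and 0.332. Hdac5, its relative, was at 37.7 and 31.8 CPM against 12.97 and 14.5. Dnmt3a, which methylates DNA anew, was at 330.5 and 306 CPM against 665 and 639. Of 25 nuclear receptors, 10 rose and 9 fell, beside 31.1% and 33.8% of all genes tested. Rora was highest, and Pparg (-1.39) and Rxra (-1.39), a dimer partner of many nuclear receptors, were among the lowest.

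Lists of markers of other cell types gave these levels. The B cell list summed to 321 and 312 CPM in Nr4a1-OV and 252 and 254 in RV-GFP, nearly all of it Ighm, and all 4 of its tested genes rose, Ebf1 from 2.12 and 2.79 to 8.08 and 8.99 CPM. The mast cell and basophil list, which holds Csf2rb, Cpa3 and the stem cell factor receptor Kit (75.1 and 67.9 CPM against 7.81 and 9.83), summed to 219 and 209 CPM in Nr4a1-OV and 98.4 and 101 in RV-GFP, with 4 of 7 tested genes higher and 2 lower. Its defining genes Gata1, Hdc and Fcer1g stood at 0.930 and 1.16, 0.233 and 0.406, and 0.116 and 0.0580 CPM in Nr4a1-OV. Gata1 did not pass, and Hdc and Fcer1g were too low to be tested. The myeloid list summed to 50.5 and 53.7 CPM in Nr4a1-OV and 58.9 and 62.8 in RV-GFP, with Lyz2 at 0.0581 and 0.232 CPM in Nr4a1-OV. The CD4 T cell list rose in sum from 82.6 and 81.2 to 455 and 449 CPM through Foxp3 and Ikzf2. Of its 5 tested genes, 3 rose and 1 fell. The latter was Cd40lg, from a mean of 47.5 CPM in RV-GFP to 6.88 in Nr4a1-OV. Cd4 stayed under 1 CPM in each library. Of 10 NK and innate lymphocyte markers, 2 were tested, Eomes, which CD8+ T cells also express and which rose (log2 fold change 0.92), and Il1rl1, which fell. None of 7 erythroid markers had enough counts to be tested. The part of other cells in the rises of Csf2rb and Cpa3 was not tested beyond these levels.

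Beside the Nr4a1 KO and WT cultures, which share no library with this comparison, the genes called here were counted by direction. The library labels are used as given. Of the 545 genes at least 2-fold lower in Nr4a1-OV, 224 (41.1%) were higher in KO than in WT and 60 (11%) lower, against 20.2% and 19.8% of all genes tested. Of the 1721 genes at least 2-fold higher in Nr4a1-OV, 313 (18.2%) were higher in KO and 396 (23%) lower. The libraries labelled KO held no less Nr4a1 than those labelled WT, at 364 and 364 CPM against 287 and 335 in WT, so the label cannot be checked from this gene's total count. Foxp3 stood at 1.17 and 0.750 CPM in KO and 11.1 and 8.40 in WT (log2 fold change -3.33, adjusted p = 1.05e-10, edgeR's quasi-likelihood test). Ifng stood at 2084 and 1971 CPM in KO and 458 and 306 in WT (2.41), and Itgb8 at 1.40 and 0.865 and 6.17 and 5.46 (-2.35). Csf2rb was near silent in both, at 0.292 and 0.692 CPM in KO and 0.276 and 0.600 in WT. Foxp3, Ifng and Itgb8 thus moved in opposite directions in the 2 comparisons. Ccr7 was higher in both Nr4a1-OV and KO, at 1037 and 1079 CPM in KO and 789.7 and 827 in WT (0.39). Il7r and Il12rb2, also higher in Nr4a1-OV, had larger differences in the same direction. Their means were 272 and 361 CPM in KO and 98.4 and 89.5 CPM in WT. The genes named here are examples, and only the counts above cover all genes changed at least 2-fold.

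**Figure D5:**
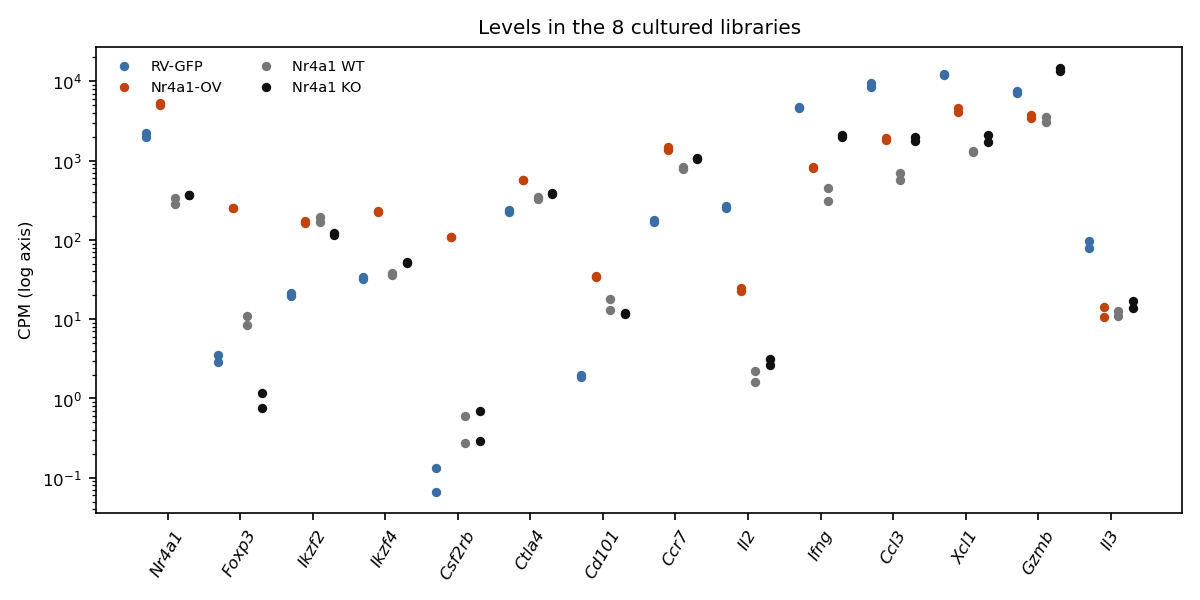
CPM (log axis) of 14 genes in the 8 cultured libraries; each point is a library, blue RV-GFP, orange Nr4a1-OV, grey Nr4a1 WT and black Nr4a1 KO, with 2 libraries a group. The virus-infected groups and the WT and KO groups were cultured differently, so levels are read within each pair; Foxp3 is higher in Nr4a1-OV than RV-GFP and lower in KO than WT, whereas Csf2rb is high in Nr4a1-OV only among the 4 groups drawn.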

How the data were processed

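RNA sequencing of 4 cultured CD8+ T cell libraries was analysed (Nr4a1-OV 2, RV-GFP 2), with 4 further cultured libraries (Nr4a1 WT 2, Nr4a1 KO 2) in the same fit. The submitters' processing notes name Trim Galore, HISAT2, edgeR and DESeq2 as the tools of the authors and mm10 as the genome build; versions, the read counter, its strand setting and the annotation are not given in the sources used here. The counts deposited by the authors are whole reads per gene, and the RPKM values that the authors deposited are per length of gene and depth of library, and were used here only for levels between genes. Dates stood in place of 19 gene symbols.

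Counts were fitted with edgeR 4.0.16 (R 4.3.3) by quasi-likelihood F tests with TMM scaling on the 8 cultured libraries, two-sided, adjusted by Benjamini-Hochberg over 14120 genes. SE values were worked back from these tests, as the absolute log2 fold change divided by the square root of F. The code was tested on simulated counts. DESeq2 1.42.0 was an alternative. Positions are from GENCODE M21 and promoters from RefSeq (GRCm38.p6). Figures were drawn with matplotlib 3.10.9 (Python 3.11.15).

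The comparison, the gene lists and the rule for naming genes were chosen with earlier results of these data known. Named genes are Nr4a1, Nr4a2, Nr4a3, Foxp3, Csf2rb and Il2; among genes past the threshold with at least 10 CPM and no overlap, the 15 highest and the 15 lowest by fold change; the 10 largest rises and falls in CPM; genes at 0 in a group; and in each list up to 6 members each way past the threshold with at least 5 CPM, and up to 3 that did not pass. A few genes that this rule names are not reported here. Jag1, Foxc1, Il9r, Il3ra, Tgfbr2, Pdcd1 and the low markers Hdc, Fcer1g and Lyz2 were named after their values were seen. Folds against 0 counts use a floor of 3 counts per library, and against 1 to 3 counts an exact 95% interval; both cover counting error only. List medians do not depend on where such genes lie above the median.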

Additional observations from a re-analysis of the deposited data

How the results depend on the processing

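The numbers of genes higher and lower in Nr4a1-OV were recomputed with RLE scaling, with DESeq2, without a filter, with at least 10 counts in all 4 libraries, with only the 4 libraries compared, with a replicate block, and leaving out each of the 4 libraries. With at least 10 counts in all 4 libraries, 360 genes fell 2-fold or more in place of 545, since fewer genes were tested, and 1193 rose as far in place of 1721. DESeq2 gave 3679 higher and 4040 lower, RLE scaling 4413 and 4753, no filter 4750 and 4476, and the 4 libraries alone 4640 and 4382. Which direction held more genes therefore depends on the fit, whereas genes past 2-fold were more often higher in every fit run. With the replicate block on the 4 libraries, 5033 genes were higher and 4787 lower. Deviations of libraries of the same number correlated at 0.133 across genes, and with 2 libraries a group this does not show that the numbers mark pairs. Leaving out a library gave 3948 to 3961 higher and 4112 to 4291 lower genes, and 1664 to 1712 past 2-fold up and 497 to 580 down. Among genes named by the rule, none that passed in the main fit or the alternative turned direction, where the alternative gave a value. Turns of genes that passed in neither fit were not counted. The filter of at least 10 counts in all 4 libraries gave none for genes with few counts in a group, such as Csf2rb, Itgb8, Cpa3, Nrp2, Trpm1 and Il10. With 2 libraries a group, a lone sample is assumed to vary like the other groups, and p-values measure only the spread between these libraries.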

Other observations

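The 10 largest rises in CPM included RNAs that are not messengers. Rn7sk, the small nuclear RNA that holds the elongation factor P-TEFb inactive, stood at 1874 and 2011 CPM against 438 and 420.2 (log2 fold change 2.18), and at 9.54 and 10.5 in Nr4a1 WT. Its level thus also differed widely between the RV-GFP and WT cultures. Whether library preparation plays a part in these levels was not tested. The mitochondrial ribosomal RNAs stood at 2407 and 2461 CPM against 1283 and 1267 (mt-Rnr1), and at 3322 and 3273 CPM against 2221 and 1978 (mt-Rnr2). Messengers among the same rises were Mlec, a lectin of the endoplasmic reticulum, at 804 and 770 CPM against 219.9 and 217, Samhd1, which degrades deoxynucleotides, at 1069 and 1026 CPM against 458 and 457, and Plec, a cytoskeletal linker, at 931 and 883 CPM against 325 and 315.

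By kind of gene, long noncoding RNA genes were higher in 311 (32.1%) and lower in 123 (12.7%) of 970 cases. Pseudogenes were higher in 55 (5.08%) and lower in 353 (32.6%) of 1083. Of all genes tested, 31.1% were higher and 33.8% lower. Long noncoding RNA genes were thus near that share upward and below it downward. Pseudogenes were near it downward and below it upward. Among long noncoding RNA genes 536 of 970 did not pass, and among pseudogenes 675 of 1083, against 3239 of 11219 protein-coding genes. Whether lower counts play a part in these shares was not tested. Protein-coding genes were higher in 3814 (34.0%) and lower in 4166 (37.1%) of 11219 cases. Small nucleolar RNA genes were lower in 27 (40.3%) of 67 and higher in 3 (4.48%). Reads of a processed pseudogene and of its parent gene can be hard to tell apart, so the pseudogene counts are uncertain.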
